A study of Mus musculus with 16 samples.

Results

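The proteasome genes followed here were measured by 73 probes of 46 genes, out of 38467 probes and 19640 named genes on the array. They are all probes naming a single gene whose symbol begins with Psma, Psmb, Psmc, Psmd, Psme, Psmf or Psmg and a number, without the 3 immune subunits Psmb8, Psmb9 and Psmb10. The pattern gives 7 genes of the 20S alpha ring, 8 of the 20S beta ring, 6 ATPases and 14 non-ATPase genes of the 19S particle, 5 activators or inhibitors, 4 assembly chaperones of the 20S core and 2 further symbols. The last 2 are not subunits: Psmc3ip encodes a meiotic recombination factor and Psme3ip1 a partner of the activator Psme3. The testis form Psma8 and the thymus form Psmb11 match the pattern and were kept, and Psma5 was measured by a probe that also names its pseudogene, so the rule leaves it out. All 73 probes had a value on every array.

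The cells were 3T3-L1, an established mouse preadipocyte line that is widely used to study fat cell formation. Cultures were given the synthetic glucocorticoid dexamethasone (dex) or DMSO alone as vehicle, and the 4 groups were dex for 2 h, DMSO for 2 h, dex for 36 h and DMSO for 36 h, with 4 biological replicates each. The labels state no dose of dex, and no genetic change is labelled in any group. Cy5-labelled cDNA of each sample was hybridised on one of 16 two-colour arrays against a Cy3-labelled pool of the samples, so each value is the log2 ratio of sample over pool.

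The proteasome is the large protease that degrades proteins tagged with ubiquitin. Its 20S core is a barrel of outer alpha rings, which gate the entrance, and inner beta rings, which hold the proteolytic sites. The 19S regulatory particle binds ubiquitin chains, removes them, and unfolds the substrate with a ring of ATPases. In muscle, glucocorticoids are known for raising ubiquitin-dependent protein breakdown, and the transcription factor Nfe2l1 is known for raising proteasome genes together when proteasome activity is short.

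A value of 0 means a level equal to the pool, and a ratio against a pool gives no level of its own, so neither the order of genes by abundance nor the identity of the cells can be read from these values. Of the marker genes of preadipocytes and fibroblasts, 4 of 7 measured fell under dex at 36 h, as did 1 of 10 macrophage markers (Lyz2, log2 -0.56), while 1 of 10 epithelial markers rose (Krt8, 1.15) and 0 of 10 endothelial markers passed. Among all genes 4.96% fell and 6.88% rose at 36 h. At 2 h the only marker to pass was Pdgfrb, which fell by 0.74 on the log2 scale. The part of these shifts in the proteasome values was not tested. The spread around the group mean over all probes had an SD between 0.108 and 0.435 log2 on single arrays, and the noisiest arrays were among those at 2 h. One of the DMSO arrays at 2 h, replicate 4, stood apart from its group: its ratios over all probes had a mean correlation of -0.104 with those of the other 3. Differences were tested with limma over all 16 arrays and all probes, with Benjamini-Hochberg adjustment over all probes of a comparison. A gene passed where at least 1 of its probes had an adjusted p under 0.05, and for a gene with several probes the value quoted is that of the probe with the smallest p in one F test of both dex comparisons, unless another probe is named. Where both probes of a gene passed, the one with the larger difference is given first.

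Promoters are shown for 4 of the genes that passed at 36 h. They are windows of the RefSeq promoter table (GRCm38.p6) from 250 bases before to 50 bases after the annotated start. Windows on 1 chromosome were not shown, so a passing gene missing here may still have a window. Capitals mark matches on the strand shown or its reverse to CCGGAA, the core bound by ETS-family factors, or to TGACNNNGC, the core of antioxidant response elements, to which Nfe2l1 binds. The beta subunit Psmb6 lies on the plus strand at chr11:70525107-70525406, the ATPase Psmc5 on the plus strand at chr11:106255935-106256234, the lid subunit Psmd6 on the minus strand at chr14:14120896-14121195 and the assembly chaperone Psmg3 on the minus strand at chr5:139826845-139827144.
Psmb6: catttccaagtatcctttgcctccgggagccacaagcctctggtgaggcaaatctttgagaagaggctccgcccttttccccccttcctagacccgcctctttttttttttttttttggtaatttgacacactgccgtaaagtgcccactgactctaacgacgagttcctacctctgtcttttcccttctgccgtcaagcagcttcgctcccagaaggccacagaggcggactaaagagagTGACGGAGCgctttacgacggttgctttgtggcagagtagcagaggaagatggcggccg
Psmc5: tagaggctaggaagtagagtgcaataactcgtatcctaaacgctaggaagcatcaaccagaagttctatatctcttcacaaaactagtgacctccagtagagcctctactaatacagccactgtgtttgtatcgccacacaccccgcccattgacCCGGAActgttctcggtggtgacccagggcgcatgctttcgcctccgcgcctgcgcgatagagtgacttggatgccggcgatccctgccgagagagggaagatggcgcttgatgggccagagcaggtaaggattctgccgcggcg
Psmd6: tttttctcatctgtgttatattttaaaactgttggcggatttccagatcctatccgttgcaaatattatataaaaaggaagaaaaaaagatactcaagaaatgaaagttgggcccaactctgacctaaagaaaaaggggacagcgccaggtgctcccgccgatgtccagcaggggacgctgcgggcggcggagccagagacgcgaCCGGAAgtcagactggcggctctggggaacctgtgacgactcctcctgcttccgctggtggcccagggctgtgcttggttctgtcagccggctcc
Psmg3: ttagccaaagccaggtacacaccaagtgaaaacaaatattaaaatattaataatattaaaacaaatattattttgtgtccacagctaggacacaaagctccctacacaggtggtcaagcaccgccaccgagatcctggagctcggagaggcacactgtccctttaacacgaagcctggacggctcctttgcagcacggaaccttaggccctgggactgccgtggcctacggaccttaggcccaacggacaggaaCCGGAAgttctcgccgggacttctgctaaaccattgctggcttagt
The window of Psmb6 holds 1 TGACNNNGC match and 0 CCGGAA matches, while those of Psmc5, Psmd6 and Psmg3 hold 1 CCGGAA match each.

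The table holds 42 windows of 38 of the 46 genes, against 32851 windows in all, and both strands were searched. CCGGAA stood in 22 of the 42 windows (52.4%) and in 14.9% of all windows. TGACNNNGC stood in 6 of the 42 (14.3%) and in 12.4% of all. The CCAAT box was in 15 (35.7%, against 37.4% of all), and TATAAA in 3 (7.14%, against 13.6%). The motifs were picked with these shares in view, so the shares describe the windows only, and a match is a run of letters, not a shown binding site.

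At 2 h of dex, 0 proteasome genes rose and 0 fell by the limma test. Among all genes 1.97% rose and 1.21% fell. At an unadjusted p under 0.05 the quoted probes gave 1 proteasome gene higher and 3 lower, where those of all 19640 genes gave 1454 and 1260. The quoted log2 differences ran from -0.44 to 0.33 with a median of -0.039, beside a median of -0.012 over all genes. The quartiles of the proteasome genes were -0.087 and 0.079, against -0.14 and 0.11 for all genes. For 62 of the 73 probes (84.9%) the 95% interval of the difference lay wholly within 0.5 log2 of zero, which held for 65.9% of all probes. The median standard error was 0.10 for the proteasome probes and 0.130 for all. Values of dex and DMSO arrays did not overlap for 1 probe on the high side (Psmd2, a scaffold subunit of the 19S base) and 2 on the low side (Psmc3 and a probe of Psme1), where all probes gave 3.52% and 3.12%.

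The differences furthest from zero at 2 h, none of which passed, belonged to activators, chaperones and the ATPase Psmc3 (-0.31, described with the other ATPases). Psme1, a subunit of the interferon-inducible PA28 activator, gave -0.44 (adjusted p = 0.318), and Psme4, the nuclear activator PA200, gave 0.33 (adjusted p = 0.315). The chaperones Psmg3 and Psmg1 gave -0.42 (adjusted p = 0.315) and 0.22 (adjusted p = 0.627). In the 20S core, the alpha subunits Psma6 and Psma1 gave 0.12 and 0.11, and the beta subunits Psmb6 and Psmb4 gave 0.13 and -0.11. Among 19S genes, the ATPase Psmc5 gave 0.16, Psmd9, a chaperone of 19S base assembly, gave -0.22, and the lid subunit Psmd7 gave -0.15. Psme3ip1 and Psmc3ip gave 0.14 and 0.09.

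**Figure D1:**
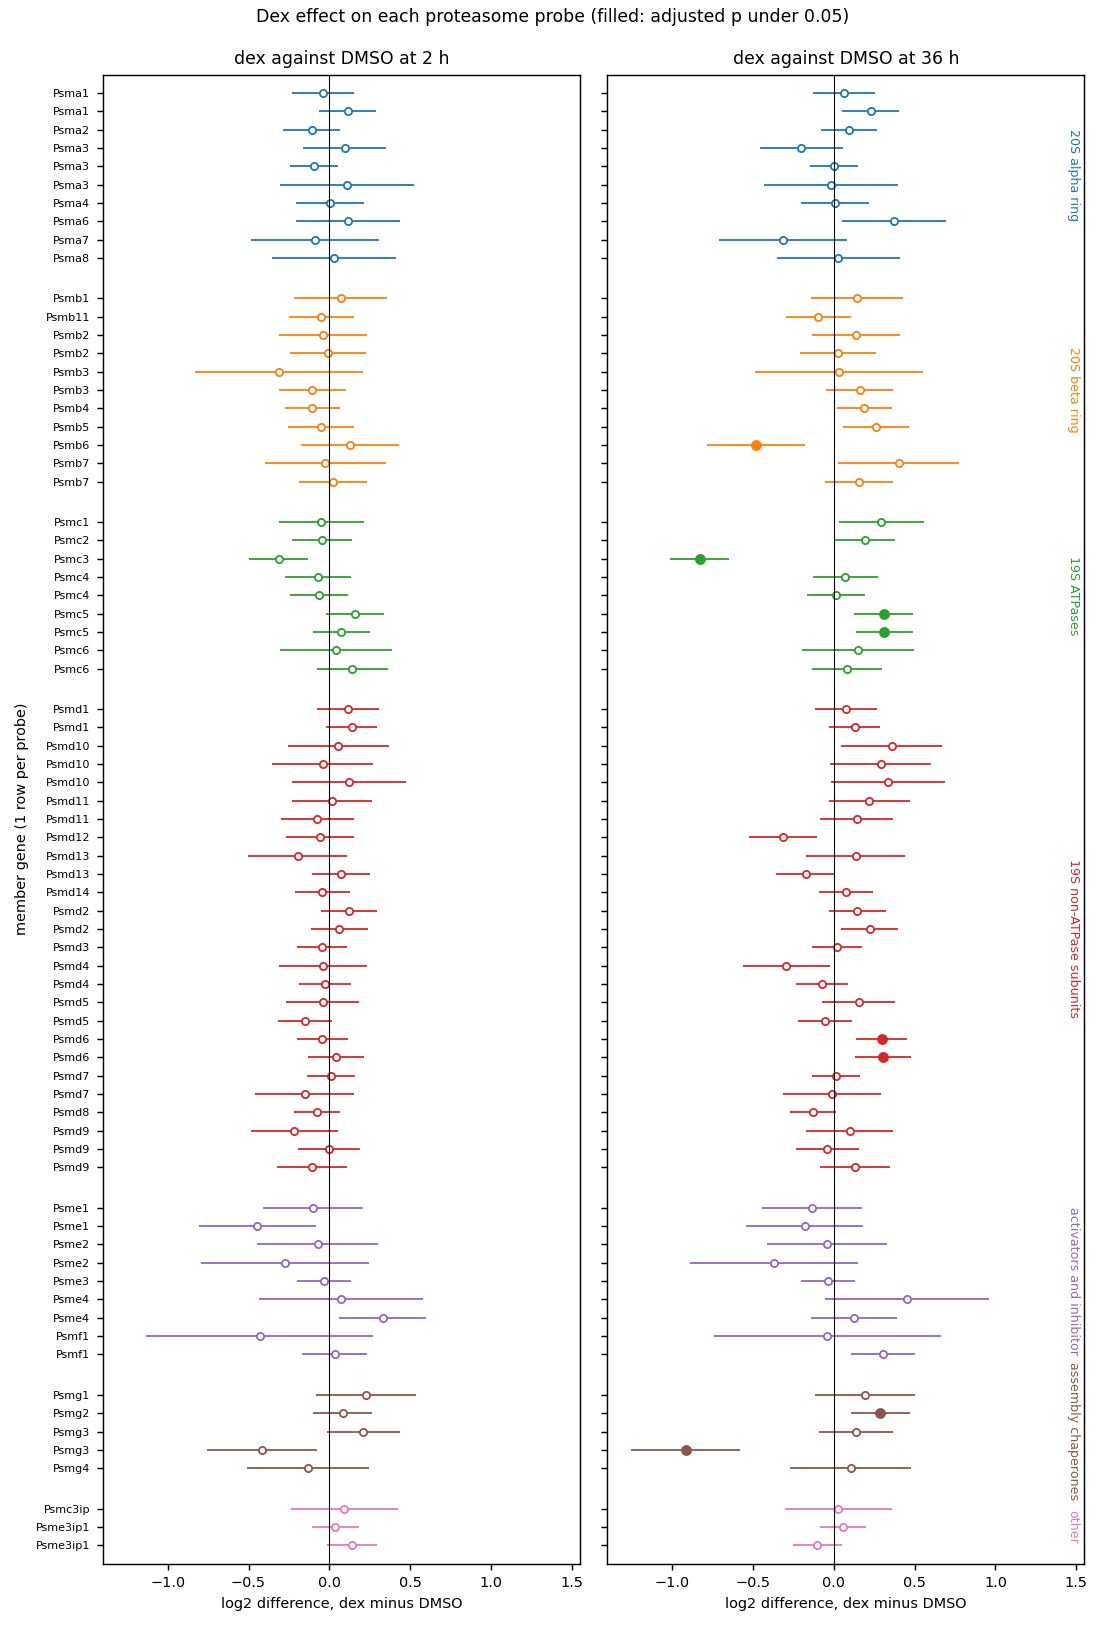
Log2 difference of dex over DMSO with its 95% interval for each of the 73 probes of the 46 genes, at 2 h and at 36 h. Rows are grouped by subcomplex, 1 row per probe, with filled points where the probe passed. Most points lie within 0.5 log2 of zero, and Psmc3 (-0.83) and 1 probe of Psmg3 (-0.92) stand furthest out at 36 h.

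At 36 h, 3 proteasome genes rose (Psmc5, Psmd6 and Psmg2) and 3 fell (Psmc3, Psmg3 and Psmb6), 6 of 46, where 6.88% of all genes rose and 4.96% fell. The rise of 3 was 0 without dex replicate 1 or 3 or DMSO replicate 1, 2 or 4 at 36 h, where 4.02% to 4.74% of all genes rose. It was 1 without DMSO replicate 3, where 5.11% of all genes rose, and 7 without dex replicate 2, where 8.57% did. Counted at an unadjusted p under 0.05, the quoted probes gave 13 higher and 5 lower, where those of all 19640 genes gave 2834 and 2401. The balance moved with the scaling of the arrays: with quantile or with scale normalization 7 rose and 4 fell, as 11.6% rose and 11.1% or 9.99% fell among all genes. With array weights 21 rose and 10 fell, when 24.2% and 24.7% of all genes did. The quoted differences ran from -0.92 to 0.40, under 1 log2 unit in size, although quantile normalization gave -1.01 for Psmc3 and -1.21 for Psmg3, and scale normalization -1.02 for Psmg3.

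More proteasome genes lay above zero than below at 36 h, by small amounts. The median difference was 0.088, against -0.0012 over all genes, with 30 genes above zero and 16 below. The quartiles were -0.10 and 0.21 for the proteasome genes and -0.15 and 0.16 for all. Of the 73 probes, 51 (69.9%) were above zero, against 49.9% of all probes. The 95% interval lay wholly within 0.5 log2 of zero for 54 probes (74.0%, against 58.9% of all). Groups did not overlap for 10 probes on the high side and 8 on the low side, where all probes gave 14.0% and 13.8%. By subcomplex the median was 0.030 for alpha, 0.15 for beta, 0.14 for ATPase, 0.048 for non-ATPase, -0.036 for activator and inhibitor, and 0.15 for chaperone genes.

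The shift was uneven among the dex cultures. The median over the quoted probes of the 46 genes was 0.12, -0.056, 0.17 and -0.0058 in the 4 dex arrays at 36 h, against -0.051, -0.0077, 0.028 and -0.011 in the 4 DMSO arrays at 36 h. Replicates 1 and 3 of dex lay above all DMSO arrays, while replicate 2 lay below them all and replicate 4 among them. Over all 73 probes replicate 2 had -0.033, within the DMSO range of -0.050 to 0.016. The mean was 0.056 ± 0.104 in dex and -0.010 ± 0.032 in DMSO (SD, n = 4 each). At 2 h the medians were 0.098, 0.031, 0.023 and 0.076 in dex, against 0.12, 0.10, 0.065 and 0.034 in DMSO, and the groups overlapped.

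**Figure D2:**
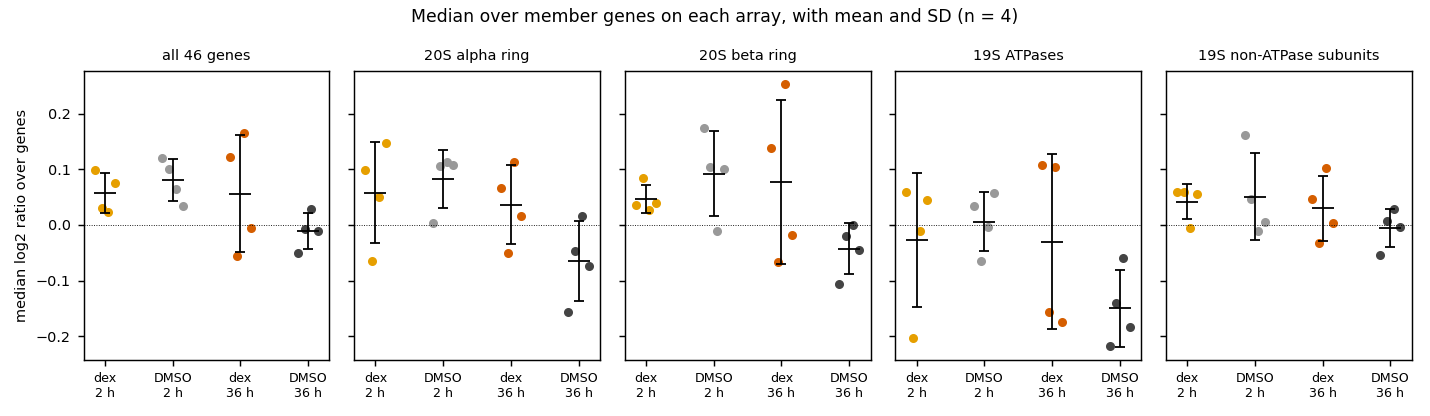
Median log2 ratio of sample over pool on each of the 16 arrays, over the quoted probes of all 46 genes and of the genes of 4 subcomplexes, each point being 1 array, with the group mean and SD (n = 4) as bars. Over the 46 genes the dex arrays at 36 h spread from -0.056 to 0.17, and the DMSO arrays at 36 h lie between -0.051 and 0.028.

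In the alpha ring 0 of 7 genes passed the limma test at 36 h, and 2 were higher at an unadjusted p under 0.05. Of all 19640 genes 2834 were higher at that level. Psma6 had log2 ratios of 0.42, -0.18, 0.28 and 0.10 in dex, against -0.25, -0.30, -0.14 and -0.18 in DMSO. Dex replicate 2 lay within the DMSO range, and the difference was 0.37 (adjusted p = 0.158). Psma7 gave -0.31 (adjusted p = 0.376).

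In the beta ring, Psmb6, which carries the caspase-like site, fell at 36 h. It had log2 ratios of -0.28, -0.32, -0.36 and -0.01 in dex, against 0.30, 0.31, 0.15 and 0.17 in DMSO. All dex arrays lay below all DMSO arrays, with replicate 4 closest. The difference was -0.48 ± 0.14 (SE), or 1.39-fold lower, with a limma adjusted p of 0.0483 that missed the threshold in 15 of 26 alternative settings and reached 0.148. It was lost without dex replicate 1, 2 or 3 or any DMSO array at 36 h, and without dex replicate 1, 3 or 4 or DMSO replicate 2 or 3 at 2 h. At 2 h its ratios were 0.14, 0.39, 0.04 and 0.02 in dex, against 0.43, 0.11, -0.08 and -0.37 in DMSO, which overlapped. The subunits with the other proteolytic sites lay on the opposite side of zero without passing: Psmb7, the trypsin-like one, gave 0.40 (adjusted p = 0.195, and 0.15 on its other probe), and Psmb5, the chymotrypsin-like one, gave 0.26 (adjusted p = 0.109). Psmb5 had ratios of 0.26, 0.05, 0.38 and -0.02 in dex, against -0.19, -0.07, -0.04 and -0.07 in DMSO, again highest in dex replicates 1 and 3.

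Among the 19S ATPases, Psmc3 fell by the widest margin relative to its error. Its log2 ratios at 36 h were -0.45, -0.56, -0.73 and -0.62 in dex, against 0.27, 0.25, 0.23 and 0.21 in DMSO. No array of one group came near the other, and the means were -0.59 ± 0.12 and 0.24 ± 0.029 (SD, n = 4 each). The difference was -0.83 ± 0.086 (SE), 1.78-fold lower in dex, with a limma adjusted p of 1.29e-05. It passed in all 26 alternative settings, with adjusted p between 3.70e-08 and 1.82e-04.

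Psmc3 was also the gene with a tested difference between times. At 2 h it had -0.08, -0.22, -0.0014 and 0.07 in dex, against 0.19, 0.33, 0.37 and 0.13 in DMSO, which did not overlap. That difference of -0.31 ± 0.09 (SE) missed the threshold (limma adjusted p = 0.0874), and it passed in 1 alternative, without DMSO replicate 4 at 2 h (0.0405). The dex effect at 36 h minus that at 2 h was -0.51 ± 0.12 (SE, limma adjusted p = 0.0354), where 1.36% of all genes had a lower effect and 2.12% a higher one. This interaction was lost in 12 of 25 alternatives (adjusted p 0.00415 to 0.146), among them those without dex replicate 1, 3 or 4 at 2 h, dex replicate 3 or 4 at 36 h or any 1 of the DMSO arrays at 36 h. Psmc3 was read by 1 probe, and no other probe checks it.

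The ATPase Psmc5 rose on both of its probes at 36 h. The first probe read 0.21, 0.25, 0.23 and 0.17 in dex, against -0.11, -0.12, -0.05 and -0.11 in DMSO. The other read 0.20, 0.05, 0.19 and 0.20 in dex, against -0.16, -0.22, -0.10 and -0.11 in DMSO. Neither probe's groups overlapped. The differences were 0.31 ± 0.083 (limma adjusted p = 0.0291) and 0.31 ± 0.085 (limma adjusted p = 0.0340), or 1.24-fold on the first probe, which was lost in 8 of 25 alternatives (adjusted p up to 0.0859), including those without dex replicate 1 or 3 or any DMSO array at 36 h. Of the other ATPases, Psmc1 gave 0.30 (adjusted p = 0.168) and Psmc2 gave 0.19 (adjusted p = 0.211). Psmc1 read 0.18, -0.13, 0.27 and -0.34 in dex, against -0.28, -0.21, -0.39 and -0.34 in DMSO, with dex replicate 4 inside the DMSO range.

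Among the 19S non-ATPase genes, the lid subunit Psmd6 rose on both probes. The first probe read 0.30, 0.05, 0.27 and 0.07 in dex, against -0.17, -0.06, -0.07 and -0.23 in DMSO. The other read 0.17, 0.04, 0.17 and 0.01 in dex, against -0.21, -0.19, -0.15 and -0.25 in DMSO. The groups did not overlap on either, and dex replicates 1 and 3 were the higher ones. The differences were 0.31 ± 0.081 (limma adjusted p = 0.0285) and 0.30 ± 0.075 (limma adjusted p = 0.0220), and the first probe was lost in 7 of 25 alternatives (adjusted p up to 0.112), including those without dex replicate 1 or 3 or DMSO replicate 1, 2 or 4 at 36 h. Psmd12, another lid subunit, gave -0.31 (adjusted p = 0.0614). Psmd10, a chaperone of base assembly also called gankyrin, gave 0.36 (adjusted p = 0.160) on the quoted probe and 0.29 and 0.34 on its other probes.

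Of the activators and the inhibitor, 0 of 5 passed the limma test at 36 h, and 1 was higher at an unadjusted p under 0.05. Of all 19640 genes 2834 were higher at that level. Psme2, the partner of Psme1 in PA28, gave -0.37 (adjusted p = 0.439). Psmf1, the inhibitor PI31, gave 0.30 (adjusted p = 0.0568) on one probe and -0.04 on the other, which read -2.03 in dex replicate 2 at 2 h.

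The chaperones Psmg1 to Psmg4 help to assemble the alpha ring. Psmg2 read 0.40, 0.21, 0.54 and 0.25 in dex at 36 h, against -0.05, 0.11, 0.12 and 0.07 in DMSO, without overlap. It rose by 0.29 ± 0.085 (SE), 1.22-fold, with a limma adjusted p of 0.0468 that was lost in 12 of 25 alternatives (up to 0.164), including those without dex replicate 1 or 3 or any DMSO array at 36 h, and without dex replicate 1, 3 or 4 or DMSO replicate 3 at 2 h. Psmg1 gave 0.19 (adjusted p = 0.524) and Psmg4 gave 0.10 (adjusted p = 0.872). The 2 symbols that are no subunits, Psme3ip1 and Psmc3ip, gave -0.10 and 0.03.

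The 2 probes of Psmg3 disagreed. The probe that fell read -0.28, -0.41, -0.75 and -0.19 in dex at 36 h, against 0.56, 0.55, 0.48 and 0.44 in DMSO, and the groups stood well apart. Its difference was -0.92 ± 0.16 (SE), 1.89-fold lower, with a limma adjusted p of 0.00162. The fall passed in all 26 alternatives, counting the setting that took the mean over both probes. At 2 h it read -0.23, 0.22, -0.0072 and 0.05 in dex, against 0.75, 0.43, 0.59 and -0.08 in DMSO, with DMSO replicate 4 among the dex arrays. That difference of -0.42 passed without DMSO replicate 4 at 2 h (limma adjusted p = 0.0222) and with array weights (0.0266). The other probe read 0.06, 0.02, 0.26 and -0.06 in dex at 36 h, against -0.07, -0.09, -0.09 and -0.02 in DMSO, a difference of 0.14 ± 0.11 (limma adjusted p = 0.547). The probe that fell lists no RefSeq transcript in the platform annotation and the other lists one, so the fall is that of 1 probe and is uncertain as a change of the gene. The mean over both probes was -0.39 at 36 h and still passed.

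**Figure D3:**
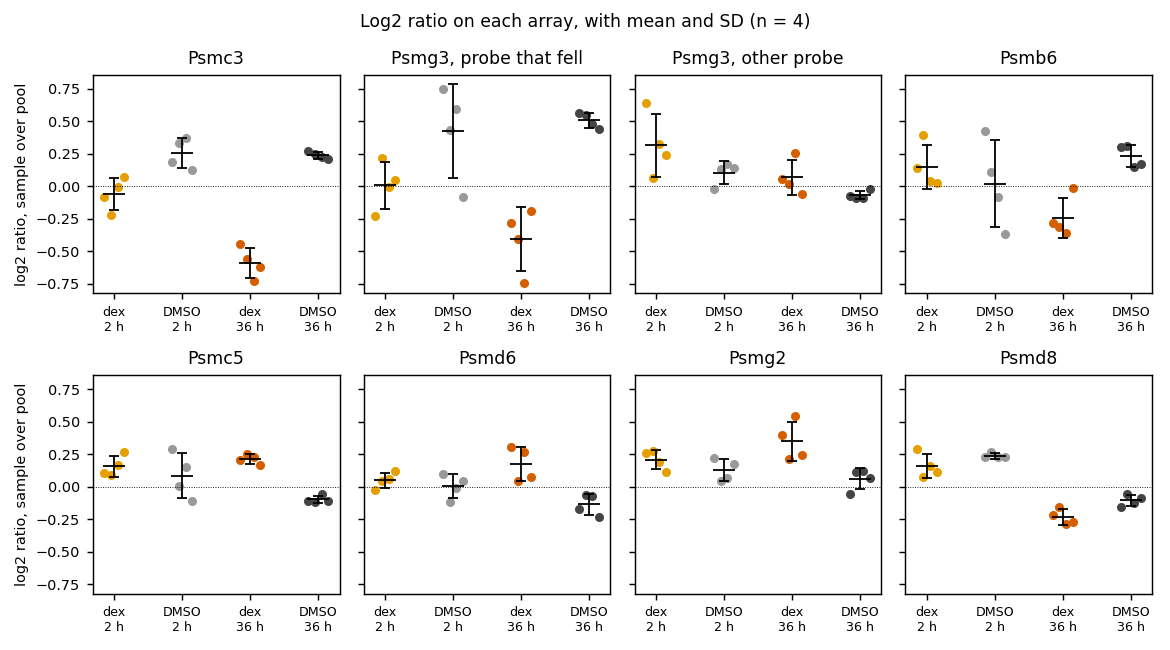
Log2 ratio of sample over pool on each array for the genes that passed a test, by group, each point being 1 array, with the group mean and SD (n = 4) as bars, and both probes of Psmg3. Psmc3 stands at -0.59 on average in dex at 36 h and 0.24 in DMSO at 36 h, while Psmc5 and Psmd6 are apart by about 0.31.

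Several probes of 1 gene gave one sign in 16 of 24 genes at 36 h, with a median gap of 0.143 log2 between the most distant probes and a largest gap of 1.05, that of Psmg3. In 2 of the 24 genes all probes passed and in 1 only some. At 2 h, 14 of the 24 had one sign, and the median gap was 0.130.

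**Figure D4:**
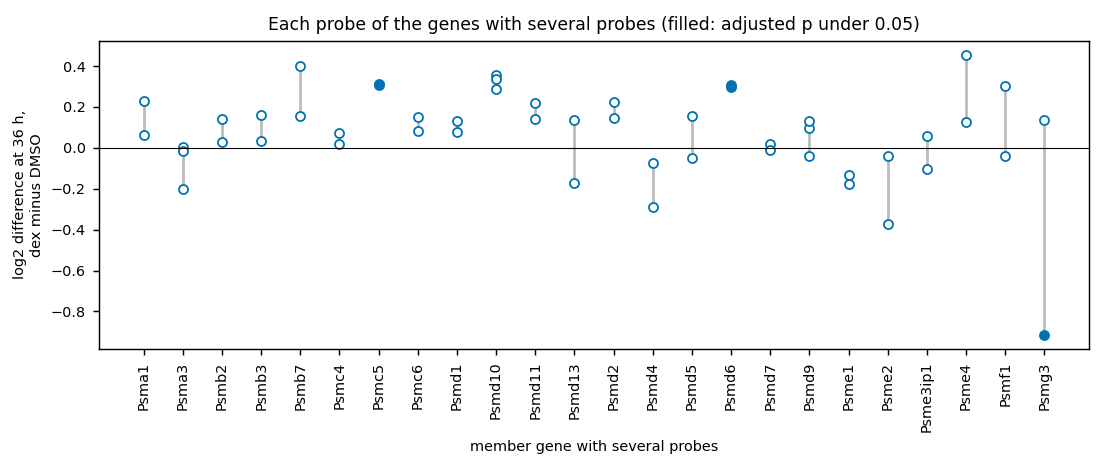
Log2 difference of dex over DMSO at 36 h for every probe of the 24 genes with several probes, each point being 1 probe, filled where it passed. The probes of Psmg3 lie 1.05 log2 apart, and the median gap over the 24 genes is 0.143.

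Between 2 and 36 h, proteasome genes in vehicle cells moved down on balance. The DMSO arrays at 36 h are used both here and against dex at 36 h, so the 2 comparisons are not independent. In DMSO, 0 genes rose and 1 fell over time by the limma test, where 0.270% and 0.993% of all genes did. At an unadjusted p under 0.05 the quoted probes gave 0 higher and 9 lower, where those of all 19640 genes gave 1037 and 1659. The median difference of 36 h over 2 h was -0.091, against -0.019 over all genes, with 10 genes above zero and 36 below. Among all genes 8992 lay above zero and 10648 below. For 18 of 73 probes all DMSO arrays at 36 h lay below all at 2 h, and for 1 they lay above, where all probes gave 6.97% and 4.10%. By subcomplex the median was -0.12 for alpha, -0.21 for beta, -0.10 for ATPase, -0.081 for non-ATPase, -0.15 for activator and inhibitor, and -0.024 for chaperone genes. In dex cells 0 rose and 2 fell over time, where 1.04% and 1.41% of all genes did. At an unadjusted p under 0.05, 1 was higher and 7 lower in dex cells, where 1351 and 1750 of all 19640 genes were. The median in dex cells was -0.041, against 0.0050 over all genes. There 3 probes lay apart on the high side and 6 on the low side, where all probes gave 5.59% and 7.07%.

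The gene that fell over time under both treatments was Psmd8, a lid subunit. It read -0.15, -0.05, -0.13 and -0.09 in DMSO at 36 h, against 0.23, 0.27, 0.23 and 0.23 in DMSO at 2 h. The difference was -0.34 ± 0.068 (limma adjusted p = 0.0245), lost in 7 of 25 alternatives (up to 0.104), including those without DMSO replicate 2 at 2 h or any 1 of the DMSO arrays at 36 h. In dex it read -0.22, -0.16, -0.29 and -0.27 at 36 h, against 0.29, 0.08, 0.16 and 0.11 at 2 h, a difference of -0.39 (limma adjusted p = 0.00790), which was lost in the fit of the 8 arrays compared (0.0529). Neither time course overlapped, and dex over DMSO at 36 h gave -0.13 (adjusted p = 0.302). The other gene to fall in dex was Psmc3 (-0.53, limma adjusted p = 0.00529), whose DMSO difference over time was -0.02. The beta subunit Psmb4 read -0.27, -0.16, -0.16 and -0.16 in DMSO at 36 h, against 0.12, 0.03, 0.01 and 0.11 at 2 h, a difference of -0.26 that did not pass (adjusted p = 0.190).

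Other genes of the ubiquitin and proteasome pathway were taken from lists of known function. Of 12 measured genes for receptors and proteins that bind the proteasome, 1 rose at 2 h and 2 rose at 36 h, with 0 falling. Among all genes 1.97% rose and 1.21% fell at 2 h, and 6.88% rose and 4.96% fell at 36 h. The gene at 2 h was Zfand5, a ubiquitin-binding activator of the proteasome, with 0.32, 0.59, 0.56 and 0.37 in dex, against -0.31, -0.60, -0.60 and -0.58 in DMSO, a difference of 0.98 ± 0.10 (limma adjusted p = 2.41e-05). Its other probe gave 0.08. At 36 h the shuttle factor Ubqln2 read 0.12, 0.52, -0.03 and 0.24 in dex, against -0.51, -0.39, -0.40 and -0.53 in DMSO. It rose by 0.67 ± 0.10 (limma adjusted p = 5.92e-04), and its further probes gave 0.63 and 0.62. The shuttle factor Rad23b rose by 0.28 (limma adjusted p = 0.0465) on 1 of its 2 probes, a pass not followed over the alternative settings.

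Of 11 measured genes tied to the transcription of proteasome genes, mostly transcription factors but also the N-glycanase Ngly1 and the kinase Mtor, 3 rose at 36 h and 0 fell, where 6.88% of all genes rose and 4.96% fell. Nfe2l1 read 0.19, 0.12, 0.23 and 0.26 in dex, against -0.05, -0.15, 0.08 and -0.03 in DMSO. It rose by 0.24 ± 0.070 (limma adjusted p = 0.0452), with a 2 h value of -0.07. This pass lay near the threshold and was not followed over the alternative settings. Foxo3, which drives atrophy genes in muscle, rose by 1.44 at 2 h and by 0.49 at 36 h on the quoted probe. Of its other probes, a pair rose by 1.46 and 1.37 at 2 h and by 1.08 and 0.83 at 36 h, and the last gave -0.08 and 0.13. Foxo4 rose by 0.61 at 36 h (limma adjusted p = 0.00424). Nfe2l2 gave 0.14 at 36 h. Of 5 measured muscle atrophy ligases, 1 rose at 2 h and 0 fell, where 1.97% of all genes rose and 1.21% fell. At 36 h 0 passed, and Trim63 was named by no single-gene probe. The ligase that rose was Fbxo32, by 0.74 ± 0.10 at 2 h (limma adjusted p = 3.76e-04), with 0.01 at 36 h on the quoted probe. Its other probe gave 1.47 at 2 h (adjusted p = 0.210), with 3.35 in dex replicate 2 against at most 0.62 in the other dex arrays, and 0.89 at 36 h (adjusted p = 0.330), without overlap of dex and DMSO at either time.

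Of 14 measured autophagy genes, 1 rose at 2 h (Atg12, 1.06), where 1.97% of all genes did, and 4 rose at 36 h, where 6.88% did: Atg12 (0.56), Gabarapl1 (0.52), Sqstm1 (0.46) and Map1lc3b (0.41). Atg12, Gabarapl1 and Map1lc3b encode ubiquitin-like proteins of autophagosome formation, and Sqstm1 a receptor that brings ubiquitinated cargo to it. Of the 7 measured genes of the p97 segregase and its cofactors 0 passed the limma test in either dex comparison, with 3 higher at 36 h at an unadjusted p under 0.05. Of the 4 measured genes of proteasome maturation 0 passed either, with 1 lower at 36 h at an unadjusted p under 0.05. At that level 2834 of all 19640 genes were higher at 36 h and 2401 lower. Of the ubiquitin and E1 genes, Uba6 alone was named by a single-gene probe, and it did not pass. The immune subunits, which replace the catalytic beta subunits after interferon, did not move as one: probes of Psmb8 gave -0.35 (limma adjusted p = 0.0136), 0.49 (limma adjusted p = 0.0353) and -0.12 (adjusted p = 0.736) at 36 h. Psmb9 gave 0.40 (adjusted p = 0.248) and Psmb10 gave -0.10 and -0.09.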

How the data were processed

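The 16 two-colour arrays were analysed from the log ratios the authors deposited in one value table, on what was taken as the log2 scale (Cy5 sample over Cy3 pool). The log base is not stated and was read as 2 because the submitters' processing notes name limma, whose ratios are log2; the sources used here do not say how background and dye were treated. Scanner intensities were not used here, so signal over background is unknown, and the number of arrays limits the precision.

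In the platform annotation 29456 probes name 1 gene, 760 name several and 8251 name none. RefSeq entries (GRCm38.p6) were found for 28735 probes. The deposited values entered limma 3.58.1 (R 4.3.3) without further normalization: 4 group means, no covariates, empirical Bayes, Benjamini-Hochberg over all probes. Of 131 missing values on 3 arrays none fell on a proteasome probe. On data simulated for dex against DMSO at 36 h with 38467 probes, in 3 runs, 31% of probes shifted by 0.5 log2 and 79% of those shifted by 1 were recovered. The shifted probes were few and drawn from all probes, whereas 6.88% of genes rose and 4.96% fell in the data. Recovery in the data, and among proteasome probes, can therefore differ from these shares.

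In each subcomplex and dex comparison, at most 4 passing and 2 other genes were named by size of change, plus those passing over time or in the interaction. Genes, lists and motifs were chosen with earlier results of these data known. Alternatives were array scaling, array weights, a robust prior, a variation filter, means over probes, log-odds above 0, only the arrays compared, a replicate block and each array left out. Single genes outside the proteasome set were not followed over these alternatives. Same-numbered replicates deviated together (r over 0.1) in 5 of 24 pairs over all groups (-0.103 to 0.344), and they were not treated as paired in the main fit. Between dex and DMSO of one time, r in number order was -0.103, 0.190, 0.041 and 0.255 at 2 h. At 36 h it was -0.024, 0.344, 0.224 and -0.075. Between dex and DMSO arrays of unlike number, r ran from -0.268 to 0.234 at 2 h and from -0.313 to 0.148 at 36 h. Deviation shared between arrays was therefore not limited to like numbers. Some structure by replicate number may still remain in the dex comparisons, and the block fit is the alternative that allows for it.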

Additional observations from a re-analysis of the deposited data

Results flagged for a closer look

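Of 116 groups of 4 arrays tested for a single array far from the other 3, 13 held one, where chance at this 95% level would give 5.8. Far was judged against the range of the 4 values, so a flag can be a small log2 difference. The groups were mostly those of named genes, picked by size of change in these data, and probes share arrays. The figure of 5.8 is therefore a rough guide only. In dex at 2 h, replicate 2 stood apart for Psmg1 (0.618, others 0.0044 to 0.078) and Psmc1 (-0.320, others 0.016 to 0.080). In DMSO at 2 h, replicate 1 stood apart for Psma6 (-0.467), Psmd7 (1.09) and Psmb7 (0.333). Replicate 2 of that group did so for Psme1 (0.971) and, by little, for Psmd8 (0.270, others 0.225 to 0.229). In dex at 36 h, the array apart was replicate 2 for Psme1 (-0.324) and for the second Psmc5 probe (0.0541), replicate 1 for Psmc2 (0.0885) and replicate 4 for Psmd12 (-0.488). In DMSO at 36 h it was replicate 1 for Psmb4 (-0.275) and, by little, replicate 4 for Psma7 (0.245, others 0.210 to 0.213). The dex effect on Psmc3 differed between times by -0.51 (limma adjusted p = 0.0354), being -0.83 at 36 h and -0.31 at 2 h.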

How the results depend on the processing

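The falls of Psmc3 and Psmg3 at 36 h and of Psmc3 over time in dex passed under every setting run. For Psmg3 this was the probe that fell, or the mean of both probes where means over probes were used. The count that rose over time in DMSO was 0 in all, where 0.0764% to 1.51% of all genes did. Other counts of proteasome genes moved with the setting. Percentages in brackets are the shares of all genes tested that were called the same way under the same setting. With array weights, 1 gene fell at 2 h (1.53%), and 21 rose (24.2%) and 10 fell (24.7%) at 36 h. There 1 had a higher (5.42%) and 2 a lower (4.05%) dex effect at 36 h than at 2 h. Over time in dex 3 rose (9.23%) and 7 fell (11.4%). Quantile normalization gave 7 genes up at 36 h (11.6%), 1 higher (4.04%) and 3 lower effects (3.17%), and 1 gene up over time in dex (1.75%). Scale normalization gave 7 up at 36 h (11.6%), 1 higher (4.24%) and 2 lower effects (2.99%), and 1 up over time in dex (1.78%). Its 2 h median was 0.0035. Only the 8 arrays compared gave 6 down at 36 h (11.1%), 0 down over time in DMSO (0.402%) and 1 in dex (0.743%). Log-odds above 0 gave 0 up at 36 h (3.35%) and 0 lower effects (0.942%). The filter on variation kept 23 of the 73 probes. It gave 0 up at 36 h (6.95%), with a median of -0.0085, and 0 lower effects (1.29%). Over time 0 fell in DMSO (0.925%) and 1 in dex (0.917%). With replicate number as a block, 0 effects were lower (1.01%) and 0 genes fell over time in DMSO (0.728%). Under the block the limma adjusted p at 36 h was 0.0552 for Psmb6, 0.0520 for Psmc5 and 0.0774 for Psmg2. The samples share only a number. Leaving out 1 array at a time gave 0 to 1 up (1.57% to 2.46%) and 0 to 2 down (0.845% to 1.8%) at 2 h. For 36 h it gave 0 to 7 up (4.02% to 8.79%) and 2 to 4 down (2.48% to 7.41%). Lower effects numbered 0 to 2 (0.815% to 1.84%), and 0 to 1 genes fell over time in DMSO (0.484% to 1.88%). The medians were -0.047 to -0.013 at 2 h and 0.043 to 0.12 at 36 h. At 36 h, 0 genes rose without dex replicate 1 or 3 or DMSO replicate 1, 2 or 4 of that time (4.02% to 4.74%). The count was 1 without DMSO replicate 3 (5.11%) and 7 without dex replicate 2 (8.57%). Over time in DMSO, 0 fell without DMSO 2 h replicate 2 (0.687%) or any DMSO 36 h replicate (0.484% to 0.606%). Signs turned for values near zero that had not passed: Psmc3ip at 2 h (-0.15 with array weights) and 36 h (-0.027 quantile, -0.020 scale), Psmg4 at 36 h (-0.0245 quantile, -0.014 scale) and Psmd7 at 2 h (0.021 scale). Leaving out 1 array gave ranges across zero at 2 h for Psma6 (-0.027 to 0.216), Psmb6 (-0.0023 to 0.264), Psmc3ip (-0.051 to 0.208) and Psmd7 (-0.238 to 0.047), and at 36 h for Psmc3ip (-0.039 to 0.128) and Psmg4 (-0.049 to 0.273). The cause was not tested.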
